A study of Mus musculus with 12 samples.

Results

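Immediate-early genes are transcribed within minutes of a stimulus, from factors already present in the cell, and their transcripts are short-lived. The 10 genes described here are Fos, Fosb, Jun, Junb, Egr1, Atf3, Ier2, Dusp1, Zfp36 and Nr4a1, which are the immediate-early transcription factors and feedback genes known to be induced by stress and by the dissociation of tissue. They were chosen by gene symbol, and all 10 were among the 15855 genes of the deposited table. Growth factors, stress and calcium act on these genes through MAP kinases and through the factors SRF, ELK and CREB, which sit on their promoters. Fos and Jun proteins pair to form AP-1, while Dusp1 and Zfp36 end the response by removing phosphate from MAP kinases and by speeding the decay of unstable transcripts.

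RNA was sequenced from EpCAM+ epithelial cells of the whole small intestine, with 7 libraries from sham-operated mice and 5 from mice after permanent middle cerebral artery occlusion (pMCAO), in which a filament blocks a main artery of the brain and is left in place. All animals were male C57BL6/J mice 8 to 12 weeks old and all were taken 24 h after surgery, and the sham mice had the same operation without the occlusion. The labels name each library as its own biological replicate. In both groups alike the epithelium was shaken off in EDTA at 37 °C over 35 min, stained on ice over 20 min and sorted as live EpCAM+ cells, so every library holds cells that had been detached and warmed before lysis. No library of undissociated tissue was analysed here, so what the detachment added to these levels was not tested. In whole populations of cells, fewer cells of a type and less RNA per cell cannot be told apart.

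Total counts ranged from 7418730 to 31925579 per library, and each of the 10 genes passed the filter on low counts that kept 14462 genes. The titles number the libraries, and in that order they fell into 4 blocks in which pMCAO libraries precede sham libraries. Block 1 (libraries 58 to 61) held 1 pMCAO and 3 sham libraries, block 2 (62 to 65) held 2 and 2, block 3 (66 to 68) held 2 and 1, and library 72, sham replicate 7, stood alone. The labels do not say what the libraries of a block had in common. The 4 libraries of block 1 stood apart from the other 8 on the first principal component, which held 40.5% of the variance. Mitochondrial ribosomal RNA took 34.8 to 54.5% of their counts against 14.6 to 35.2% elsewhere, and their scaling factors for library composition (TMM factors) were 0.559 to 0.792 against 0.993 to 1.52. Block 1 gave 3 of the 7 sham libraries and 1 of the 5 pMCAO libraries. Between the groups, the share of mitochondrial ribosomal RNA averaged 35.6% ± 13.5 (SD, 7 libraries) for sham and 24.5% ± 8.47 (SD, 5 libraries) for pMCAO, with a two-sided exact permutation p of 0.136.

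The sorted cells carried the markers of their label. Epcam ran from 883 to 2533 CPM (each gene's counts scaled to a common library size, with TMM factors) over the 12 libraries, and the summed level of 8 epithelial markers ran from 4708 to 6666 CPM in sham and from 4614 to 8303 CPM in pMCAO libraries. The summed level of 9 immune cell markers was 43.9 to 249 CPM in sham and 49.8 to 160.0 CPM in pMCAO libraries. Of 9 stromal and endothelial markers only Pecam1 was measured, at 0.0768 to 5.25 CPM, and of 6 markers of enteric neurons and glia only Ret, at 4.53 to 17.1 CPM.

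Promoter sequence was taken from RefSeq on GRCm38.p6, in windows of 250 bases before and 50 after the start of the transcript, and 8 of the 10 genes were matched there by symbol. The 200 bases upstream of the start are shown for 5 of them, namely the 3 with the smallest p-values between the groups (Junb, Zfp36 and Jun), Fos as the gene with the highest level per length, and Dusp1 as the one with a full cAMP response element. All run 5′ to 3′ on the strand of the gene, and capitals mark matches to the motifs that the next paragraph names, other than GGGCGG.
Fos, chr12:85473690-85473889, plus strand: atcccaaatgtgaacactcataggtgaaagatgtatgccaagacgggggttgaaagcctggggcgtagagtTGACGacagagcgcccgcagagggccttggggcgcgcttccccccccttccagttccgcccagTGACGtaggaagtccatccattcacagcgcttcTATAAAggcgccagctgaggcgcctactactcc
Jun, chr4:95052223-95052422, minus strand: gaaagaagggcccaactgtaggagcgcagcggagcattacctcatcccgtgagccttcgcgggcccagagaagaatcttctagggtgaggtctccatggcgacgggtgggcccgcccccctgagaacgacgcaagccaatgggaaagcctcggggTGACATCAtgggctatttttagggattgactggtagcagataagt
Junb, chr8:84978749-84978948, minus strand: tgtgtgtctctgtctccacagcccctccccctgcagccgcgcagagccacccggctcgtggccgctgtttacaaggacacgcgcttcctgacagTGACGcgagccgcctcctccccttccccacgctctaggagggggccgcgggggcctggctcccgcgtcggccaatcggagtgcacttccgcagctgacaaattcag
Zfp36, chr7:28379229-28379428, minus strand: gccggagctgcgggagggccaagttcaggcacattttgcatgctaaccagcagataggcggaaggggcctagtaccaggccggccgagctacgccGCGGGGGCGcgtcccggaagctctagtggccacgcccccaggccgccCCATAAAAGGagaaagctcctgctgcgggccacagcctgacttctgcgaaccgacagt
Dusp1, chr17:26508473-26508672, minus strand: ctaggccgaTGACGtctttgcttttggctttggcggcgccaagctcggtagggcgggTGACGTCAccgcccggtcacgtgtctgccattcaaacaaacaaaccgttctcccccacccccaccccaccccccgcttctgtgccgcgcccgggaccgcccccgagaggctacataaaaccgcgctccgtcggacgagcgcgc

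The motifs were searched on both strands of the whole window. TGACG, the core of the element bound by CREB and ATF factors, was found in 6 of the 8 windows (Fos, Fosb, Junb, Atf3, Dusp1 and Nr4a1) and in 20.8% of all 32851 windows. In Fos it began 129 and 66 bases before the start, and a TATAAA box began 33 bases before it. The full palindrome TGACGTCA, which contains TGACG on both strands, was found in Dusp1 alone, 143 bases before the start, and in 1.79% of all windows. Jun held TGACATCA, a variant to which Jun and ATF proteins bind, 45 bases before its start, and 3.62% of all windows held it. Zfp36 held a CArG box, the element bound by SRF, 58 bases before its start, which 1.63% of all windows held. It also held GCGNGGGCG, the site bound by Egr1, as did Fosb and Nr4a1, against 5.55% of all windows. TGANTCA, the classical AP-1 site, was found in 0 of the 8 windows and in 7.81% of all, and TATAAA was found in Fos and Junb and in 13.6% of all. The match in Junb began at the start of the transcript used here and not upstream of it. GGGCGG, the box bound by Sp1, was found in 7 of 8 windows and in 35.7% of all. A match is a run of letters and was not measured as a binding site.

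Among the 10 genes, levels compared per kilobase of exons (CPM divided by the length of the merged exons) spanned 91.7-fold. Medians over the 12 libraries were 240.2 CPM per kb for Fos, 213 for Jun, 123 for Zfp36, 114 for Atf3, 70.5 for Egr1, 50.2 for Dusp1, 31.8 for Ier2, 27.9 for Junb, 25.03 for Fosb and 2.62 for Nr4a1. Fos and Jun led by this measure, Nr4a1 was far below the rest, and Junb and Fosb were well below their family partners. The order depends on the annotated lengths. For Zfp36 the merged exons, at 3470 bases, cover the whole annotated gene with any intron, so its level per kb may be understated. Neighbours in this order were not all separated. Fos was above Jun in 9 of 12 libraries, Zfp36 above Atf3 in 6, Ier2 above Junb in 8 and Junb above Fosb in 8, whereas each other neighbouring pair kept its order in 11 or 12 libraries. Together the 10 genes took 0.160 to 0.455% of each library's counts, the lowest in pMCAO replicate 4 and the highest in sham replicate 7.

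The comparison of pMCAO with sham mice addressed how stroke alters the transcripts of the intestinal epithelium. With the group alone in the model, 0 of the 10 genes passed an adjusted p of 0.05, and 0 of all 14462 genes did (limma-voom, Benjamini-Hochberg, background 0%). In all, 1219 genes (8.43%) had an unadjusted p under 0.05, and edgeR's quasi-likelihood test also gave 0 genes after adjustment and 930 (6.43%) before it. Where an absolute log2 difference of at least 1 was also required, other settings called 68 genes (DESeq2 Wald test) and 18 (sample quality weights). At that threshold 0 of the 10 genes were called. By adjusted p alone, Jun and Junb passed in the fit with the replicate number as a block, which used replicates 1 to 5 only. Their adjusted p-values there were 0.0278 and 0.0390 by limma-voom. With the group alone, the estimates for all 10 genes were below 0, with a median log2 difference of -0.38. The median of all genes was 0.06, and 44.8% of them were below 0. An unadjusted p under 0.05 with a lower level in pMCAO was found for 3 of the 10 (Junb, Zfp36 and Jun) against 3.77% of all genes, and with a higher level for 0 against 4.66%. For every one of the 10 genes the ranges of the groups overlapped, and the share of all genes with overlapping ranges was not worked out.

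**Figure D1:**
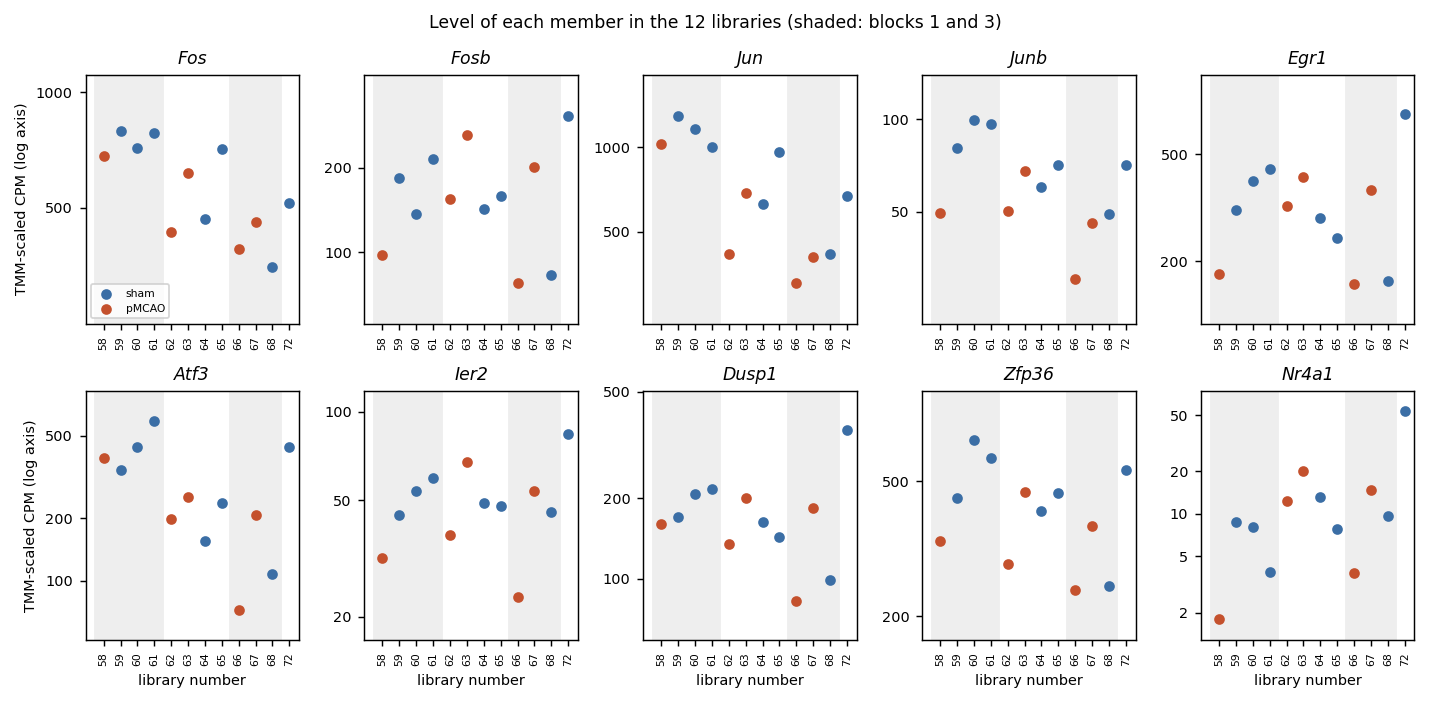
TMM-scaled CPM on a log axis for each of the 10 genes, with the libraries in the order of their numbers on the x axis, sham in blue and pMCAO in orange, and blocks 1 and 3 shaded. The 4 libraries of block 1 (58 to 61) are all above the other 8 for Jun, library 72 (sham replicate 7) is the highest for 5 genes, and library 66 (pMCAO replicate 4) is the lowest for 8.

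Of the AP-1 genes, Fos (ENSMUSG00000021250, plus strand of chromosome 12, 85473890 to 85477273 on GRCm38) measured 684, 434, 615, 390.2 and 458 CPM in pMCAO replicates 1 to 5. In sham libraries its lowest, median and highest levels were 349.8, 713 and 793 CPM. All 5 pMCAO libraries were below the sham median, but sham replicate 6 was below them all. The log2 difference was -0.26 (SE 0.24, 95% interval -0.77 to 0.24), with an adjusted p of 0.766 by limma-voom. Fosb (ENSMUSG00000003545, minus strand of chromosome 7, 19302696 to 19310051), a Fos relative, measured 98.2, 154, 261, 78.0 and 201 CPM in pMCAO replicates 1 to 5 and 83.3, 158 and 307 CPM at its lowest, median and highest in sham libraries. The groups covered nearly the same range, with a log2 difference of -0.22 (SE 0.32) and an adjusted p of 0.868 by limma-voom.

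Jun (ENSMUSG00000052684, minus strand of chromosome 4, 95049034 to 95052222) encodes the partner of Fos in AP-1. It measured 1025, 416, 688, 329.8 and 408 CPM in pMCAO replicates 1 to 5, and 416, 962 and 1295 CPM at its lowest, median and highest in sham libraries. The single pMCAO library of block 1 was the one above the sham median, and 3 of the other 4 were below the lowest sham library. The log2 difference was -0.68 (SE 0.32, 95% interval -1.35 to -0.0023), with a p of 0.0493 before and 0.592 after adjustment by limma-voom. Junb (ENSMUSG00000052837, minus strand of chromosome 8, 84974484 to 84978718), a Jun relative that is a weaker activator, measured 49.7, 50.3, 67.8, 30.4 and 46.1 CPM in pMCAO replicates 1 to 5. In sham libraries it measured 49.3, 71.1 and 99.5 CPM at its lowest, median and highest. All 5 pMCAO libraries were below the sham median, and 5 of the 7 sham libraries were above the highest pMCAO library. Its log2 difference was -0.60 (SE 0.22, 95% interval -1.07 to -0.14), with the smallest p of the 10 genes (unadjusted 0.0142, adjusted 0.495 by limma-voom).

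The readings of Jun and Junb include stretches shared with genes on the opposite strand, and the sources used here do not state whether counting used strand, so reads from the shared stretches cannot be told apart. In the GENCODE M21 annotation, 232 of the 3189 exonic bases of Jun overlap the antisense gene Junos, whose own log2 difference was -0.84 (SE 0.48) with an adjusted p of 0.642 by limma-voom. For Junb, 173 of 2301 exonic bases overlap Prdx2, a peroxiredoxin gene, at 0.29 (SE 0.28). Zfp36 shares 125 of 3470 bases with the antisense gene Gm44710 and Dusp1 shares 11 of 3311 with Ergic1, while the other 6 genes had no overlapping exon.

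Atf3 (ENSMUSG00000026628, minus strand of chromosome 1, 191170296 to 191218039) encodes a stress-induced repressor of the ATF family. It measured 392, 198, 254, 72.8 and 209 CPM in pMCAO replicates 1 to 5, and 108, 341 and 587 CPM at its lowest, median and highest in sham libraries. The highest pMCAO value was again the library of block 1, and 3 sham libraries lay above it. The log2 difference was -0.58 (SE 0.44), with an adjusted p of 0.717 by limma-voom. Egr1 (ENSMUSG00000038418, on chromosome 18), a zinc finger factor that binds GC-rich promoters, measured 179, 321, 411, 164 and 368 CPM in pMCAO replicates 1 to 5, and 169, 311 and 706 CPM at its lowest, median and highest in sham libraries. Of the pMCAO libraries, 3 were above the sham median and 2 below it, with a log2 difference of -0.37 (SE 0.32) and an adjusted p of 0.758 by limma-voom.

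Nr4a1 (ENSMUSG00000023034, plus strand of chromosome 15, 101254269 to 101274795) encodes the orphan nuclear receptor Nur77 and varied most, by 29.6-fold from the lowest to the highest library. It measured 1.79, 12.4, 20.1, 3.84 and 14.8 CPM in pMCAO replicates 1 to 5. In sham libraries its lowest, median and highest levels were 3.86, 8.76 and 53.1 CPM, the last in sham replicate 7, with 13.2 CPM in the next. The pMCAO median was above the sham median while the fitted log2 difference was -0.18 (SE 0.57, 95% interval -1.38 to 1.02), with an adjusted p of 0.948 by limma-voom. Leaving out sham replicate 7 gave 0.23, and leaving out pMCAO replicate 1, the lowest library, gave 0.13.

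Among the regulators, Ier2 (ENSMUSG00000053560, minus strand of chromosome 8, 84661331 to 84662852), a short nuclear protein that acts in transcription, measured 31.8, 38.1, 67.7, 23.4 and 53.6 CPM in pMCAO replicates 1 to 5. In sham libraries it measured 44.5, 48.9 and 84.4 CPM at its lowest, median and highest. The pMCAO libraries split, with 3 below the lowest sham library and 2 above the sham median, and the log2 difference was -0.39 (SE 0.25, adjusted p 0.677 by limma-voom). Dusp1 (ENSMUSG00000024190, minus strand of chromosome 17, 26505590 to 26562128), the phosphatase of p38 and JNK kinases, measured 160.1, 134, 201, 82.7 and 183 CPM in pMCAO replicates 1 to 5, and 98.8, 170.0 and 361 CPM at its lowest, median and highest in sham libraries. Apart from sham replicate 7 the groups had like ranges, and the log2 difference was -0.34 (SE 0.29, adjusted p 0.750 by limma-voom).

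Zfp36 (ENSMUSG00000044786, minus strand of chromosome 7, 28376784 to 28380253) encodes tristetraprolin, which binds AU-rich transcripts and hastens their decay. It measured 334, 285, 465, 238 and 369.6 CPM in pMCAO replicates 1 to 5, and 246, 461 and 661 CPM at its lowest, median and highest in sham libraries. In pMCAO libraries 4 of 5 values were below the sham median, and 3 sham libraries were above every pMCAO library. The log2 difference was -0.52 (SE 0.24, 95% interval -1.03 to -0.02), with a p of 0.0430 before and 0.583 after adjustment by limma-voom.

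The library-number blocks moved with these genes. Averaged on the log2 scale, block 1 was above the other 8 libraries by 1.23 for Atf3, 1.06 for Jun, 0.63 for Fos, 0.54 for Junb, 0.44 for Zfp36, 0.26 for Dusp1 and 0.06 for Egr1. The same difference was -0.04 for Fosb, -0.06 for Ier2 and -1.43 for Nr4a1, and for Nr4a1 the ranges still overlapped (1.79 to 8.76 CPM in block 1 and 3.84 to 53.1 CPM elsewhere). For Jun all 4 libraries of block 1 (998 to 1295 CPM) were above the other 8 (329.8 to 962 CPM), a separation found for 5.46% of all genes. The reverse, with block 1 below the others, was found for 9.40% of all genes and for 0 of the 10. In block 1 the summed level of 6 villus tip enterocyte markers was 24424 to 39533 CPM against 8297 to 27866 CPM elsewhere, and the summed level of the 6 crypt markers measured was 13.3 to 39.2 CPM against 53.5 to 213 CPM. The part of this cell composition, or of the mitochondrial ribosomal RNA given above, in the members' levels was not tested.

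With the blocks in the model, the lower levels of pMCAO mice were not seen across the set. In that fit 69 of 14462 genes (0.477%) passed an adjusted p of 0.05, 47 (0.325%) also had an absolute log2 difference of at least 1, and 0 of the 10 genes passed either. The estimates were below 0 for 5 of the 10 and above 0 for 5, with a median of 0.0033, where 48.7% of all genes were below 0. Junb was the 1 gene of the 10 that had an unadjusted p under 0.05 in this fit, at -0.41 (SE 0.17, unadjusted p 0.0310, adjusted p 0.332 by limma-voom), against 6.17% of all genes with such a p and a lower level. The share of all genes with such a p in either direction was 12.7%, and 6.58% had it with a higher level, where 0 of the 10 did. Jun was at -0.33 (SE 0.17, unadjusted p 0.0654), Zfp36 at -0.24 (SE 0.19), Ier2 at -0.20 (SE 0.23) and Fos at -0.04 (SE 0.15). The other estimates were 0.05 (SE 0.26) for Egr1, 0.08 (SE 0.20) for Dusp1, 0.10 (SE 0.23) for Atf3, 0.13 (SE 0.27) for Fosb and 0.20 (SE 0.38) for Nr4a1. Being alone in its block, sham replicate 7 does not enter the group difference here.

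**Figure D2:**
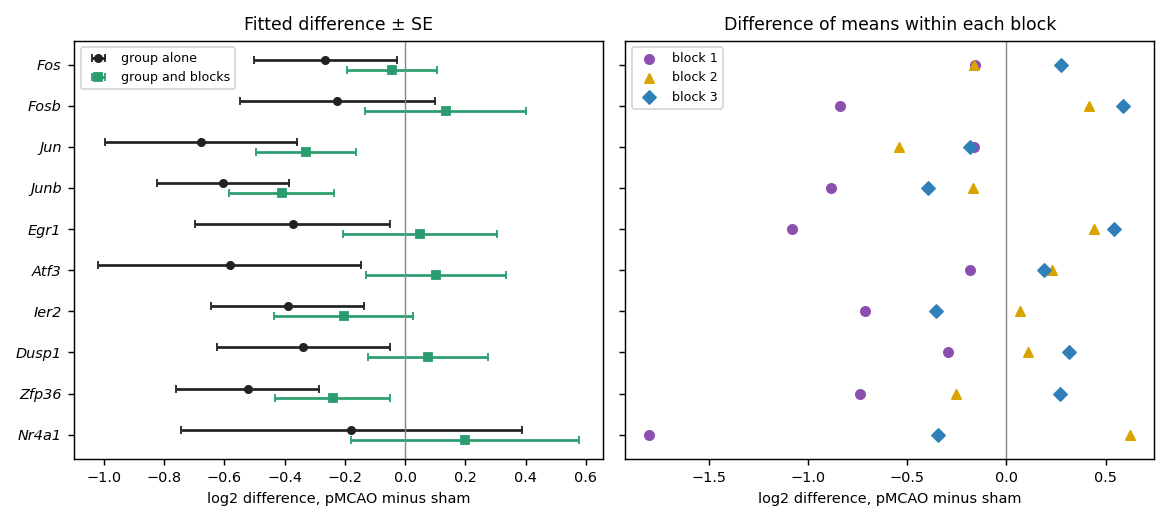
Left, the log2 difference of pMCAO minus sham (x axis) for each of the 10 genes with the SE as bars, fitted with the group alone (circles) and with the library-number blocks (squares). Right, the difference of mean log2 CPM within each block that holds both groups. With the group alone all 10 points are below 0, with the blocks 5 are, and within blocks 2 and 3 most points are above 0.

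Within single blocks, all 10 genes were lower in the pMCAO library of block 1 than in the mean of its 3 sham libraries. Lower in pMCAO were 4 of 10 in block 2 and 4 of 10 in block 3. The share of all genes lower within a single block was not worked out, so these counts describe the 10 genes and cannot be set against the rest. Block 1 holds 1 pMCAO library, so its differences have no replicate on that side. Block 3 holds 1 sham library, sham replicate 6, so its differences have no replicate on the sham side. That library was the lowest sham library for every gene of the 10 but Ier2 and Nr4a1. For what share of all genes it was the lowest sham library was not worked out. Jun and Junb were lower in each of the 3 blocks, 2 of 10 genes against 13.4% of all genes. For Jun the log2 differences were -0.16, -0.54 and -0.18 in blocks 1, 2 and 3, and for Junb they were -0.88, -0.17 and -0.40. Higher in each block were 0 of 10, against 16.9% of all genes. The widest disagreement was that of Nr4a1, at -1.80, 0.62 and -0.35, followed by Egr1, at -1.08, 0.44 and 0.54.

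Single libraries stood out as well. Sham replicate 7 was the highest of the 12 for 5 genes (Fosb, Egr1, Ier2, Dusp1 and Nr4a1), where it was the highest for 13.0% of all genes. The same library had the highest immune marker sum (249 CPM, next 160.0 CPM), the highest crypt marker sum (213 CPM, next 108 CPM) and the highest Pecam1 level (5.25 CPM), and their part in its levels was not tested. The library of pMCAO replicate 4 was the lowest for 8 genes, all but Fos and Nr4a1, where it was the lowest for 5.08% of all genes. Without pMCAO replicate 4, 0 of the 10 genes kept an unadjusted p under 0.05, Jun being at -0.48, Junb at -0.45 and Zfp36 at -0.39. In that fit 937 of 15003 genes had such a p in either direction. Without sham replicate 6, all 10 estimates were further below 0 than with the 12 libraries. Jun was then at -0.81, Junb at -0.71 and Zfp36 at -0.65, and these 3 were lower at such a p. In that fit 1367 of 14053 genes had such a p in either direction. Without the whole of block 1, 0 of 10 had such a p, where 1164 of 15355 genes had it in either direction. Without both block 1 and sham replicate 7 the estimates split 5 below 0 and 5 above.

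Scaling moved the direction too. When library totals were used with no scaling factor, the median of all genes shifted from 0.06 to 0.35, a shift of 0.29, and 5 of the 10 genes had estimates above 0 (Fos, Fosb, Egr1, Dusp1 and Nr4a1), the median of the 10 being 0.01. All 10 were still below the median of all genes, as they were with TMM factors. Of all genes with an unadjusted p under 0.05, the share that was lower in pMCAO went from 44.7% to 13.4% under that choice. DESeq2 size factors, and TMM factors without the mitochondrial ribosomal RNA, left all 10 below 0, with medians of -0.40 and -0.38. With the blocks and no scaling factor, 4 were below 0 and 6 above. Jun, Junb, Ier2 and Zfp36 were below 0 under each of the 17 alternatives other than leaving out single libraries, and the remaining 6 genes changed sign under at least 2 of them.

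**Figure D3:**
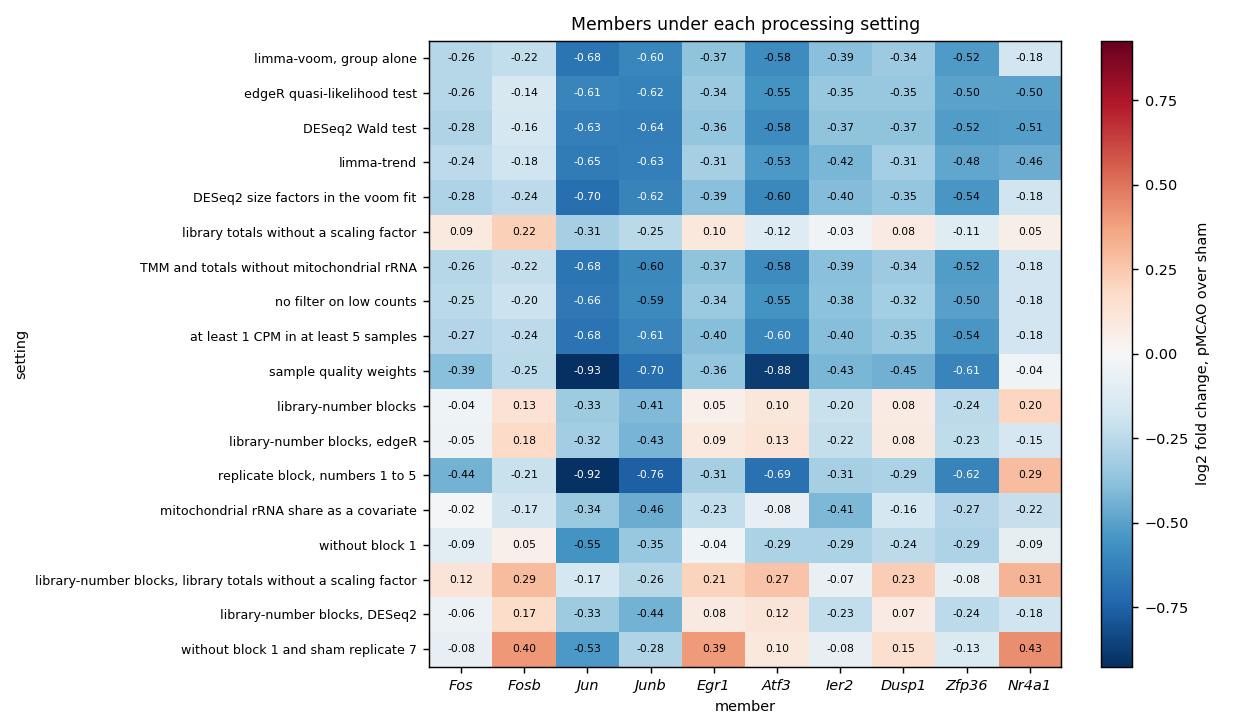
The log2 fold change of pMCAO over sham for the 10 genes (columns) under each processing setting (rows), with blue for lower and red for higher in pMCAO. The columns of Jun, Junb, Ier2 and Zfp36 stay blue in every row, while Fosb reaches 0.40 and Nr4a1 0.43 without block 1 and sham replicate 7.

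The 10 genes varied together among the 8 libraries outside block 1. All 45 pairs had a Pearson r above 0 across those libraries, with a median of 0.83 and a range from 0.29 (Fos and Nr4a1) to 0.97 (Egr1 and Dusp1). Of all pairs of tested genes, 49.9% had an r above 0 across them. Over all 12 libraries, which fall into the separate sets described above, 43 of the 45 pairs were above 0, against 51.3% of all pairs. The 2 exceptions were Fos with Nr4a1 at -0.26 and Jun with Nr4a1 at -0.22, and Atf3 with Nr4a1 was at 0.03. Jun and Junb had an r of 0.90 across the 8 libraries outside block 1 and of 0.82 over all 12. The libraries share depth, sorting and composition as well as treatment, so these values describe the libraries and are given with no test. The 6 other genes whose log2 CPM was most like the mean of the 10 over the 12 libraries were Scarna13, Csrnp1, Adamtsl4, Plk3, Vps37b and Rn7sk. Over the 8 libraries outside block 1 their r with that mean was 0.91, 0.91, 0.86, 0.89, 0.87 and 0.86 in that order. Csrnp1 encodes a nuclear protein induced by AXIN1 and Plk3 a stress-responsive kinase, and both are known as immediate-early genes, while Scarna13 and Rn7sk are short noncoding RNAs.

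Counts for the lists below are set against all 14462 genes. The shares of all genes with an unadjusted p under 0.05 were 3.77% lower and 4.66% higher with the group alone, 6.17% lower and 6.58% higher with the blocks, and 1.04% lower and 6.74% higher with library totals and no scaling factor. The shares with estimates below 0 were 44.8%, 48.7% and 22.4% in the same order.

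Relatives of the 10 genes were examined as a list of 20 genes, of which 15 were tested. With the group alone 2 had an unadjusted p under 0.05 with a lower level in pMCAO and 0 with a higher level, the median was -0.35, and 10 were below 0. The 2 were Fosl2, a Fos relative, and Ier5, a relative of Ier2. Fosl2 measured 281, 152, 146, 118 and 116 CPM in pMCAO replicates 1 to 5 and 149, 242 and 368 CPM at its lowest, median and highest in sham libraries, a log2 difference of -0.59 (SE 0.26, adjusted p 0.575 by limma-voom). Ier5 measured 145, 36.5, 36.2, 31.8 and 32.1 CPM in pMCAO replicates 1 to 5 and 51.4, 69.0 and 121 CPM at its lowest, median and highest in sham libraries, at -0.76 (SE 0.36, adjusted p 0.591 by limma-voom). In Ier5 the pMCAO library of block 1 was the highest of all 12 and the other 4 were below every sham library. Dusp6, a phosphatase of ERK, was at -0.58 (SE 0.32) and Jund, the third Jun gene, at -0.35 (SE 0.24). With the blocks 2 of 15 were again lower and 0 higher, and the list's median was -0.08. With library totals 0 of 15 had such a p and 8 were below 0.

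Of 26 other rapid response genes tested, 5 had an unadjusted p under 0.05 with a lower level in pMCAO and 1 with a higher level, 23 were below 0, and the median was -0.26. With the blocks 4 were lower and 3 higher at such a p, 16 were below 0 and the median was -0.06. With library totals 0 were lower and 2 higher, and 13 were below 0. Rhob, a small GTPase of the endosome, measured 68.02, 53.8, 56.0, 40.0 and 64.2 CPM in pMCAO replicates 1 to 5 and 60.2, 84.2 and 108 CPM at its lowest, median and highest in sham libraries. All 5 pMCAO libraries were below 6 of the 7 sham libraries, and the log2 difference was -0.63 (SE 0.19, unadjusted p 0.00372, adjusted p 0.350 by limma-voom). Ppp1r15a, the GADD34 subunit that restores translation after stress, measured 15.1, 14.4, 18.4, 6.56 and 17.2 CPM in pMCAO replicates 1 to 5 and 18.2, 30.2 and 45.4 CPM at its lowest, median and highest in sham libraries, at -0.97 (SE 0.29, adjusted p 0.350 by limma-voom). Its ranges overlapped by 1 library on each side. Tnfaip3, the A20 brake on NF-kB, was at -0.67 (SE 0.25). Hbegf, a growth factor of the EGF family, at -0.87 (SE 0.41) and Mcl1, a survival protein, at -0.47 (SE 0.22) were the other lower genes and were named after their values were seen.

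The gene on the other side was Myc, a growth regulator and target of Wnt signals in crypts. It measured 1.62, 2.88, 3.53, 4.00 and 2.68 CPM in pMCAO replicates 1 to 5 and 0, 0.988 and 2.49 CPM at its lowest, median and highest in sham libraries, a log2 difference of 2.01 (SE 0.70, adjusted p 0.466 by limma-voom) and 1.31 (SE 0.55) with the blocks. The other 2 higher genes with the blocks, named after their values were seen, were Errfi1, an inhibitor of the EGF receptor, at 0.59 (unadjusted p 0.000422, adjusted p 0.0604 by limma-voom) and Areg, a ligand of that receptor, at 0.86 (unadjusted p 0.00803). With the group alone they were at 0.22 and 0.51. For Myc the 3 sham libraries of block 1 were at 0 to 0.241 CPM, so that the fitted size depends on the prior count. The summed level of the crypt markers was low in the same libraries, and its part in the Myc values was not tested.

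Of 22 upstream kinases and regulators, 0 had an unadjusted p under 0.05 with a lower level in pMCAO and 1 with a higher level, and the median was -0.15. With the blocks 1 was lower and 2 were higher, and with library totals 0 and 2, with a median of 0.14. The 1 with the group alone was Rps6ka5, the MSK1 kinase that phosphorylates CREB and histone H3 at immediate-early promoters. It measured 11.5, 4.79, 7.70, 17.7 and 8.60 CPM in pMCAO replicates 1 to 5 and 2.72, 5.25 and 8.29 CPM at its lowest, median and highest in sham libraries, a log2 difference of 0.76 (SE 0.35, adjusted p 0.583 by limma-voom) and 0.99 (SE 0.32) with the blocks. Elk4, a partner of SRF, was at -0.37 (SE 0.19), Creb1 at -0.30 (SE 0.16) and the receptor gene Egfr at -0.61 (SE 0.34).

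Heat shock genes, which respond to protein damage and warming, were examined as the other stress program that handling can set off. Of 11 tested, 4 had an unadjusted p under 0.05 with a lower level in pMCAO and 0 with a higher level (against 3.77% and 4.66% of all genes), and the median was -0.15. With the blocks 3 were lower and 0 higher, 9 were below 0 and the median was -0.32. These 3 were Hsp90aa1, Hspa1b and Hsph1, the last of which was named after its value was seen. Hsph1 was at -0.95 with the blocks and at -0.47 with the group alone (unadjusted p 0.417 by limma-voom). With library totals 0 of the 11 had such a p, 5 were below 0 and the median was 0.16. Hsp90aa1, the inducible HSP90, measured 60.8, 66.9, 58.3, 48.3 and 58.3 CPM in pMCAO replicates 1 to 5 and 63.8, 89.97 and 102 CPM at its lowest, median and highest in sham libraries, at -0.55 (SE 0.16, unadjusted p 0.00395, adjusted p 0.350 by limma-voom). Of its pMCAO libraries, 4 of 5 were below every sham library. Hspa1a and Hspa1b, the inducible HSP70 genes, were at -1.28 (SE 0.46) and -1.35 (SE 0.54), and as near-identical copies they may have traded reads. Their levels were low, at 0.800 to 6.24 CPM and 1.36 to 16.0 CPM over the 12 libraries. Bag3, a partner of HSP70, was at -0.46 (SE 0.21).

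Glucocorticoid-induced genes, which respond to stress hormone, had the opposite sign. All 7 were above 0 with the group alone, with the blocks and with library totals, where 55.2%, 51.3% and 77.6% of all genes were. The median was 0.52 (0.49 with the blocks and 0.78 with library totals), and 1, 2 and 5 of the 7 had an unadjusted p under 0.05 in these fits. The 1 with the group alone was Zbtb16, a zinc finger repressor, at 4.61, 0.584, 2.42, 4.72 and 5.02 CPM in pMCAO replicates 1 to 5. In sham libraries Zbtb16 had 0, 0 and 3.64 CPM at its lowest, median and highest, 4 of the 7 libraries being at 0, so that no fold is given, and its adjusted p was 0.350 by limma-voom. Fkbp5, a co-chaperone of the glucocorticoid receptor, measured 8.29, 10.2, 27.3, 21.9 and 21.8 CPM in pMCAO replicates 1 to 5 and 0, 4.94 and 20.8 CPM at its lowest, median and highest in sham libraries, at 1.42 (SE 0.68, adjusted p 0.600 by limma-voom). Per1 was at 0.52 (SE 0.26) and Tsc22d3, which encodes GILZ, at 0.56 (SE 0.31).

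Markers of position along the villus, set beside these lists, also had a common sign with the group alone. The 6 villus tip markers were below 0, with a median of -0.36, and the 6 crypt markers tested were above 0, with a median of 0.60, but 0 of either list had an unadjusted p under 0.05. With library totals and no scaling factor 3 of the 6 villus tip markers were below 0. With the blocks 5 villus tip markers and 1 crypt marker were below 0. In that fit 1 villus tip marker, Slc28a2, was lower at an unadjusted p under 0.05, at -0.57 (SE 0.26, unadjusted p 0.0432, adjusted p 0.371 by limma-voom). Of the crypt markers 0 had such a p with the blocks. Nt5e, of the villus tip, was at -1.28 (SE 0.62) and Olfm4, of crypt stem cells, at 1.54 (SE 0.90). Of the 9 immune markers 1, Itgax, had an unadjusted p under 0.05, at 1.54 (SE 0.65, adjusted p 0.557 by limma-voom), and of the 8 epithelial markers 1, Fabp1, at 1.00 (SE 0.47, adjusted p 0.589 by limma-voom). With the blocks 3 of the 9 immune markers were higher at such a p, which were Itgax at 1.33, Cd3g at 1.60 and Cd8a at 1.43, and 0 of the 8 epithelial markers. With library totals the counts were 0 of 9 and 1 of 8. Another 3 of the 9 immune markers, Ptprc, Lyz2 and Itgam, were below 0 with the group alone and with the blocks. Cd3g and Ptprc were named after their values were seen. Of the 8 epithelial markers, 4 were below 0 with the group alone, among them Epcam (-0.46) and Cdh1 (-0.29), and 3 with the blocks. The part of cell composition in the estimates for the 10 genes was not tested.

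**Figure D4:**
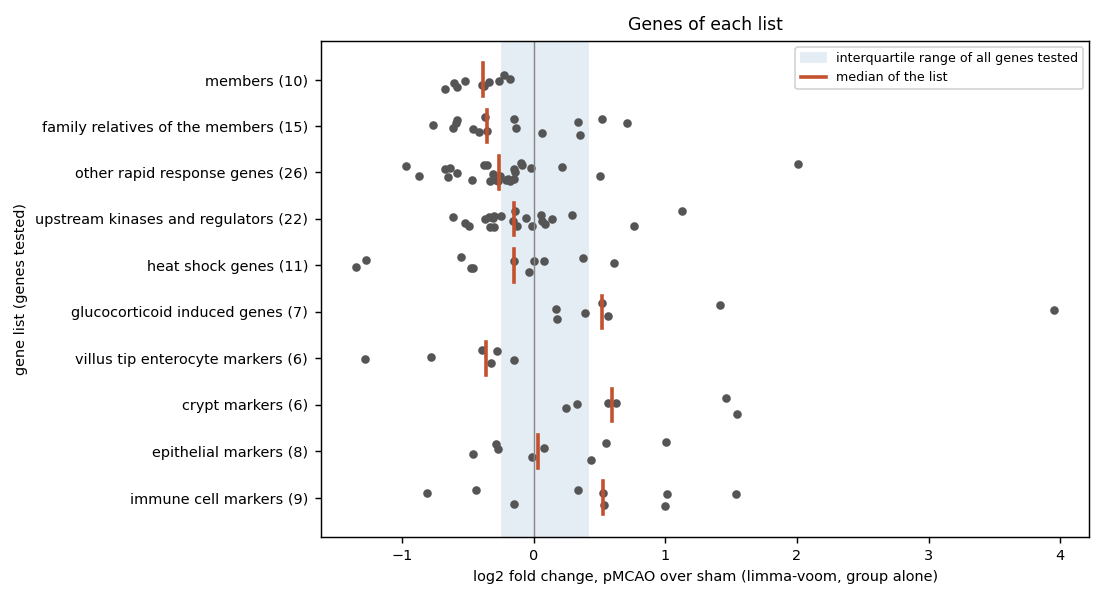
The log2 fold change of pMCAO over sham (x axis, limma-voom with the group alone) for each tested gene of the 10 lists with more than 1 gene (y axis), with the median of each list as a red bar and the interquartile range of all 14462 genes, -0.24 to 0.42, shaded. The 10 members lie between -0.68 and -0.18, the 7 glucocorticoid-induced genes are all above 0, and 0 of the genes shown passed an adjusted p of 0.05.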

How the data were processed

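Processed values of 12 RNA-seq libraries of sorted epithelium were used. According to the labels and the methods of the study, the authors aligned reads to GRCm38 with STAR and assigned them to genes with featureCounts; their versions and the strand setting are not given in the sources used here. The deposited counts were raw whole numbers for 15855 genes. The CPM columns deposited beside them equalled the counts scaled to the table's total within 0.001 for 190260 of 190260 values. The authors' own comparison columns (group averages, p-value and false discovery rate) were not used.

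filterByExpr (edgeR 4.0.16) with its default minimum count of 10 removed 1393 genes. Counts were scaled by TMM, and limma-voom (limma 3.58.1 in R 4.3.3) was fitted to the group with no covariate, with Benjamini-Hochberg adjustment over all 14462 genes. A gene was called where the adjusted p did not exceed 0.05 and the log2 fold change was 1 or more in size. The study corrected for the day of collection, which the labels do not give, and blocks of consecutive library numbers were therefore fitted beside the group. Pairs of replicates differed by far more than sampling noise (chi-square per degree of freedom at least 14.4 over 31 pairs). Average log2 CPM used a prior count of 2. Exon lengths and overlaps were taken from GENCODE M21 and promoters from RefSeq (GRCm38.p6). Fits were also run on simulated counts that held group differences but no block effect, and no result given here rests on them. Alternatives were edgeR, DESeq2 1.42.0, other scalings, filters and covariates, and libraries left out. Figures were drawn with matplotlib 3.10.9.

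The members and lists were chosen with earlier results of these data known, as was the block rule. The text names all 10 members, up to 4 genes a list with the smallest p, and the 6 genes most like the members' mean. Exceptions are named as such.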

Additional observations from a re-analysis of the deposited data

How the results depend on the processing

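None of the 10 genes passed the threshold (adjusted p and size together) under any alternative, and all alternatives were run. The count of all genes called, 0 with the group alone, was 68 with DESeq2, 1 with limma-trend, 3 with library totals, 18 with sample quality weights, 47 with the blocks, 21 with the blocks in edgeR, 32 with the blocks and library totals, 115 with the blocks in DESeq2, and 0 to 17 with 1 library left out (17 without pMCAO replicate 3, 8 without pMCAO replicate 1 and 5 without sham replicate 7). The count of members lower at an unadjusted p under 0.05, 3 with the group alone, was 1 with edgeR, limma-trend, the blocks, the blocks in edgeR and the blocks in DESeq2. It was 0 with library totals, with the blocks and library totals, with the mitochondrial ribosomal RNA share as a covariate, without block 1, and without block 1 and sham replicate 7, and it ran from 0 (without pMCAO replicate 4) to 4 (without pMCAO replicate 3) with 1 library left out, and was 1 without sham replicates 2, 3 or 5 or pMCAO replicate 2. Over all genes, 1219 of 14462 had such a p in either direction with the group alone. The count was 930 with edgeR, 1086 with limma-trend and 1843 with the blocks. With the blocks it was 1325 in edgeR and 1635 of 14453 in DESeq2. It was 1126 with library totals (1314 with the blocks) and 1220 with the mitochondrial share. It was 1164 of 15355 without block 1, and 1425 of 15688 without block 1 and sham replicate 7. With 1 library left out it ran from 876 to 2138. The difference in mitochondrial ribosomal RNA share ran from -14.6 (without sham replicate 6, exact permutation p 0.0433) to -7.93 percentage points.

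Signs turned as follows. With library totals Fos was at 0.092, Fosb 0.22, Egr1 0.10, Dusp1 0.079 and Nr4a1 0.055. With the blocks Fosb was at 0.13, Egr1 0.050, Atf3 0.10, Dusp1 0.075 and Nr4a1 0.20; in edgeR Fosb 0.18, Egr1 0.093, Atf3 0.13 and Dusp1 0.085; in DESeq2 Fosb 0.17, Egr1 0.085, Atf3 0.12 and Dusp1 0.074. With the blocks and library totals Fos was at 0.12, Fosb 0.29, Egr1 0.21, Atf3 0.27, Dusp1 0.23 and Nr4a1 0.31. Without block 1 Fosb was at 0.048. Without block 1 and sham replicate 7 Fosb was at 0.40, Egr1 0.39, Atf3 0.10, Dusp1 0.15 and Nr4a1 0.43. With 1 library left out Egr1, Atf3 and Dusp1 were lowest at -0.52, -0.79 and -0.47 (without sham replicate 6), Fosb ran from -0.42 to 0.0085 (without pMCAO replicate 4) and Nr4a1 from -0.54 to 0.23 (without sham replicate 7; 0.13 without pMCAO replicate 1). The blocks with library totals, the blocks in DESeq2 and the removal of block 1 with sham replicate 7 were added after the data had been seen. The cause of these changes was not tested.

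Replicate numbers did not pair the libraries: the correlation of same-numbered deviations ran from -0.24 to 0.40, was above 0.1 in 2 of 5 pairs, and 1 pMCAO library correlated best with its own number. With the replicate number as a block, only replicates 1 to 5 were fitted, which left out the sham libraries with higher numbers. In that fit 259 genes were called, and 5 members had an unadjusted p under 0.05 with a lower level. Of all genes, 2405 of 13644 had such a p in either direction. Nr4a1 was at 0.29, and Jun (-0.92) and Junb (-0.76) had adjusted p-values of 0.0278 and 0.0390 by limma-voom. The part of the left-out libraries in these values was not tested. At counts of 16 to 873 per library, Nr4a1 is the member that depth limits most.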
